A study of Chromochloris zofingiensis with 12 samples.

Results

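The astaxanthin branch of carotenoid synthesis was followed in *Chromochloris zofingiensis*, a freshwater unicellular green alga, through the transcripts of 3 genes. They are *BKT1* (Cz13g13100) and *BKT2* (Cz04g11250), which code for β-carotene ketolases, and *CHYb* (Cz12g16080), which codes for the β-carotene hydroxylase. The genes were taken by the identifiers that the study lists for the branch, not by their values, and all 3 were found among the 15274 genes of the expression table. Wild-type cells of strain CCAP 211/14 were kept in continuous culture, with a dilution of 0.5 per day, and harvested 4 h into the light period. The feed held 1 or 10 mM nitrate, and the maximum irradiance at the reactor surface was 300 (LL) or 1000 (HL) µE m−2 s−1. The 4 combinations are named by light and nitrate, from LL 10 mM (unstressed) to HL 1 mM (both stresses), and each has 3 mRNA libraries. Sampling is described as triplicate over 3 consecutive days, without stating whether a library stands for a day or for a reactor. The p-values therefore cover the spread between the libraries, and this spread may be technical. All libraries come from a single strain.

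Astaxanthin is a red ketocarotenoid that some green algae build up outside the photosynthetic membranes when growth is restricted. It is made from β-carotene by 2 kinds of reaction on the β-rings: ketolases add keto groups, and the hydroxylase adds hydroxyl groups. A ketolase alone leads to canthaxanthin, the hydroxylase alone to zeaxanthin, and both together to astaxanthin, with adonixanthin among the intermediates. In *C. zofingiensis*, most of the astaxanthin is known to depend on *BKT1*.

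The table gives expression as FPKM, the number of sequenced fragments corrected for transcript length and library size, a unit inferred from the values. It carries no read counts, so the depth behind each value is unknown. The libraries differed in composition with nitrate. At 10 mM, the sum of FPKM was 1077379 to 1126292, the median gene stood at 12.6 to 14.7 FPKM and the highest gene at 56922 to 65902 FPKM. At 1 mM these were 956599 to 999661, 17.8 to 20.8 and 26318 to 34047. The values were therefore quantile-normalized across libraries on the log2(FPKM + 1) scale, as the study chose to do, and tested with limma over 14916 genes. Calls were made where the p adjusted after Benjamini-Hochberg was below 0.05. A log2 difference below is one of log2(normalized FPKM + 1), which understates the change of a gene at low level such as *BKT2*.

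*BKT1* was expressed in every library and was highest in HL 1 mM. Its deposited FPKM at 10 mM nitrate was 27.5, 23.3 and 20.4 under LL and 27.4, 25.9 and 36.1 under HL, and at 1 mM nitrate it was 37.1, 34.9 and 38.0 under LL and 79.1, 72.7 and 58.2 under HL. The 3 libraries of HL 1 mM exceeded all others, while HL 10 mM overlapped with both LL 10 mM and LL 1 mM. The means in deposited FPKM (± SD, n = 3) rose from 23.7 ± 3.61 in LL 10 mM over 29.8 ± 5.53 (HL 10 mM) and 36.6 ± 1.59 (LL 1 mM) to 70.0 ± 10.7 in HL 1 mM. The mean over all libraries, 40.0 FPKM, exceeded that of 75.8% of the genes tested.

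The response of *BKT1* to light was measured at each nitrate level. At 1 mM, the log2 difference of *BKT1* between HL and LL was 0.86 (SE 0.13, adjusted p = 0.0039), with 1.91 times the LL mean in deposited FPKM. Of the 3 genes, *BKT1* was the only gene called in this comparison, in which 2.82% of all genes were called higher and 2.41% lower by limma. With the replicate number as a block, 1308 genes were called in place of 781, *BKT1* among them at the same value (adjusted p = 0.00795), while *BKT2* and *CHYb* were not called (adjusted p = 0.112 and 0.99). By size *BKT1* ranked 73 among the 14916 genes for a rise with light at 1 mM. At 10 mM the difference was 0.20 (95% interval −0.08 to 0.48, adjusted p = 0.361) and the groups overlapped.

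The nitrate response of *BKT1* was likewise compared at each irradiance. Under HL, *BKT1* was higher at 1 mM than at 10 mM by 0.94 (SE 0.13, adjusted p = 0.000115). Under LL it was higher by 0.29 (95% interval 0.00 to 0.57, adjusted p = 0.0906), which did not pass. In size this rise exceeded 52.3% of all changes under LL. The 3 libraries of LL 1 mM all lay above those of LL 10 mM. How many of all genes separate in this way was not counted, here or below. Without quantile normalization the *BKT1* difference under LL was 0.62 and passed (adjusted p = 0.00477), with a median of 0.31 over all genes. Nitrate called far more genes than light did, since limma called 24.7% of all genes higher and 33.2% lower under HL, and 21.3% higher and 25.2% lower under LL. The rise of *BKT1* with low nitrate under HL was larger in size than 87.5% of all changes in that comparison, whereas its rise with light at 1 mM was larger than 98.9%.

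Light and nitrate together raised *BKT1* by more than the sum of both single differences on the log2 scale, but the excess did not pass the test over all genes. In HL 1 mM, *BKT1* exceeded LL 10 mM by 1.14 (SE 0.13, adjusted p = 3.33e-05), with 2.26 times the normalized mean. Limma called 25.0% of all genes higher and 28.8% lower here, and *BKT1* was among the 6.52% that were also at least 2-fold higher. The interaction was 0.66 (95% interval 0.26 to 1.06, unadjusted p = 0.00409, adjusted p = 0.0586). By limma, 3.10% of all genes had a positive and 2.37% a negative interaction. Leaving out each library in turn gave 0.57 to 0.79, and the call was made when replicate 3 of HL 10 mM (0.76, adjusted p = 0.0372) or of HL 1 mM (0.79, adjusted p = 0.0375) was absent. Taken over both levels of the other factor, nitrate limitation raised *BKT1* by 0.62 (SE 0.09, adjusted p = 0.000136) and HL by 0.53 (SE 0.09, adjusted p = 0.00372). The size of the nitrate effect followed the scaling, at 0.40 with libraries scaled to the same median, 0.91 without normalization and 1.09 with libraries scaled to the same sum of FPKM, and it passed under each (adjusted p of at most 0.00218).

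**Figure D1:**
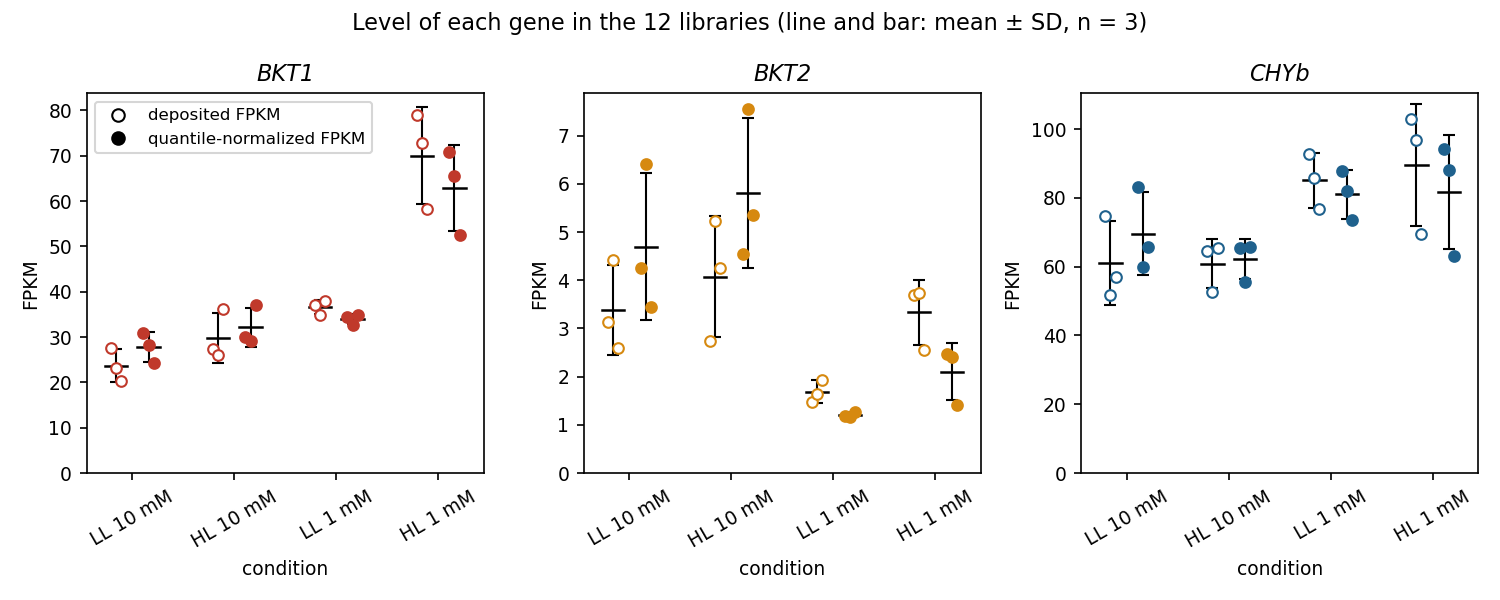
FPKM of *BKT1*, *BKT2* and *CHYb* (y axes, each from 0) in the 12 libraries by condition (x axes), as deposited (open points) and after quantile normalization (filled points), with the mean ± SD of 3 libraries. The HL 1 mM libraries of *BKT1* (58.2 to 79.1 deposited FPKM) stand above all others, *BKT2* is lowest in LL 1 mM on both scales, and *CHYb* at 1 and 10 mM nitrate overlaps after normalization under LL and under HL.

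*BKT2* was the weakest of the 3 genes and was lowest at low nitrate under LL. The deposited FPKM of this gene at 10 mM nitrate was 3.14, 4.41 and 2.60 under LL and 2.75, 5.23 and 4.25 under HL, and at 1 mM nitrate it was 1.47, 1.64 and 1.94 under LL and 3.70, 3.73 and 2.56 under HL. As deposited, only LL 1 mM stood apart from the other conditions, and HL 1 mM overlapped with both conditions at 10 mM. The counting error of such low values is unknown. The mean of 3.12 FPKM over all libraries exceeded that of 21.0% of the genes tested. FPKM is scaled to transcript length, so levels of different genes can be set side by side: in each library *BKT2* had the lowest value of the 3 genes and *CHYb* exceeded *BKT1*.

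Low nitrate lowered *BKT2* under LL, and this call did not depend on the scaling of the libraries. The log2 difference between LL 1 mM and LL 10 mM was −1.34 (SE 0.21, adjusted p = 0.000497), −1.04 with libraries scaled to the same median (adjusted p = 0.00209), −0.69 without quantile normalization (adjusted p = 0.0118) and −0.57 with libraries scaled to the same sum of FPKM (adjusted p = 0.0217). After quantile normalization *BKT2* was among the 2.94% of all genes that were also at least 2-fold lower. The LL 10 mM mean was 2.01 times the LL 1 mM mean in deposited FPKM and 3.90 times in normalized FPKM. After quantile normalization, *BKT2* had the most negative nitrate difference of the 25 carotenogenic genes that the study lists, under LL and under HL. Under LL the margin was small, at −1.34 (SE 0.21) against −1.31 (SE 0.13) for the neoxanthin synthase gene NSY Cz01g02290. These ranks were not computed under the other scalings.

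Under HL, the difference of *BKT2* between 1 and 10 mM nitrate was −1.13 (SE 0.21, adjusted p = 0.000898), and −0.65 (adjusted p = 0.0187) with median scaling. Without quantile normalization it was −0.21 (adjusted p = 0.38) and the libraries overlapped, so this call rests on the scaling. After quantile normalization *BKT2* was among the 3.65% of genes at least 2-fold lower. Against LL 10 mM, HL 1 mM stood at −0.87 (adjusted p = 0.00505), −0.49 with median scaling (adjusted p = 0.0697) and −0.01 without normalization (adjusted p = 0.978). Over both irradiances the nitrate effect was −1.24 (SE 0.15, adjusted p = 1.74e-05), and −0.85 with median scaling (adjusted p = 0.000418). It was −0.45 without normalization (adjusted p = 0.0195), and the call was lost with libraries scaled to the same sum of FPKM, at −0.32 (adjusted p = 0.0735). In that comparison limma called 27.8% of all genes higher and 36.7% lower, with *BKT1* and *CHYb* among the former and *BKT2* among the latter. *BKT2* was also among the 2.95% of genes that fell at least 2-fold.

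*BKT2* had higher means under HL than under LL at both nitrate levels, but no light difference passed the test. At 1 mM, where deposited FPKM was 1.98 times as high in HL and the libraries did not overlap, the log2 difference was 0.47 (95% interval 0.01 to 0.94, adjusted p = 0.223). At 10 mM it was 0.27 (95% interval −0.20 to 0.73, adjusted p = 0.464), with 0.09 to 0.47 when each library was left out in turn. Over both nitrate levels the light effect was 0.37 (95% interval 0.05 to 0.69, unadjusted p = 0.0268, adjusted p = 0.149), in a comparison in which limma called 5.31% of all genes higher and 4.45% lower. Without LL 10 mM replicate 2, the library of LL 10 mM with the highest *BKT2*, the light effect passed at 0.48 (adjusted p = 0.0458). The interaction was 0.20 (95% interval −0.45 to 0.86, adjusted p = 0.725).

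*CHYb* was the most abundant of the 3 transcripts and varied least between conditions, with a wide spread within them. The deposited FPKM of *CHYb* at 10 mM nitrate was 74.7, 51.6 and 56.9 under LL and 64.4, 52.7 and 65.5 under HL, and at 1 mM nitrate it was 92.7, 85.8 and 76.8 under LL and 103, 96.7 and 69.5 under HL. As deposited, LL 1 mM exceeded all 6 libraries at 10 mM nitrate, whereas the lowest library of HL 1 mM lay below the highest of LL 10 mM. The mean of 74.2 FPKM exceeded that of 87.4% of the genes tested. The residual SD of *CHYb* within conditions, 0.22 on the log2 scale, was larger than that of 79.3% of all genes, whose median was 0.13.

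Over both irradiances, low nitrate raised *CHYb* slightly, and the direction of this change depended on the scaling. The nitrate effect was 0.30 (SE 0.11, adjusted p = 0.0338) after quantile normalization, 0.51 (adjusted p = 0.00183) without it and −0.01 (adjusted p = 0.968) with libraries scaled to the same median. The call was also lost in 7 of 12 fits that left out 1 library, with values of 0.24 to 0.37 over all 12 and an adjusted p of at most 0.0782. The libraries whose absence ended it were LL 10 mM replicates 2 and 3, LL 1 mM replicates 1 and 2, HL 10 mM replicate 2 and HL 1 mM replicates 1 and 2. The fits without them gave 0.26, 0.29, 0.28, 0.30, 0.25, 0.24 and 0.26, in that order.

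No difference of *CHYb* between single conditions passed the test after quantile normalization, except that nitrate under HL did so in the fit with a replicate block (0.37, adjusted p = 0.034). Between 1 and 10 mM it was 0.37 under HL (95% interval 0.02 to 0.72, adjusted p = 0.0685) and 0.23 under LL (95% interval −0.13 to 0.58, adjusted p = 0.274). HL 1 mM replicate 3 held the lowest *CHYb* value of its condition, and without it the difference under HL was 0.55 (adjusted p = 0.00882). Without LL 10 mM replicate 1 that difference passed as well, at 0.37 (adjusted p = 0.0491). Between HL 1 mM and LL 10 mM *CHYb* differed by 0.22 (95% interval −0.13 to 0.57, adjusted p = 0.269), and by 0.40 without HL 1 mM replicate 3 (adjusted p = 0.04). Without quantile normalization the 3 differences were 0.54 under HL, 0.49 under LL and 0.54 between HL 1 mM and LL 10 mM, and all passed (adjusted p = 0.0169, 0.0293 and 0.0147). The median over all genes then also lay above 0, at 0.33, 0.31 and 0.41 in the same order.

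Light had no detectable effect on *CHYb*, at −0.01 (95% interval −0.36 to 0.35, adjusted p = 0.995) in HL against LL at 1 mM and −0.15 (95% interval −0.50 to 0.20, adjusted p = 0.604) at 10 mM. At 10 mM limma called 5.81% of all genes higher and 5.67% lower with light, and none of the 3 genes was among them.

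**Figure D2:**
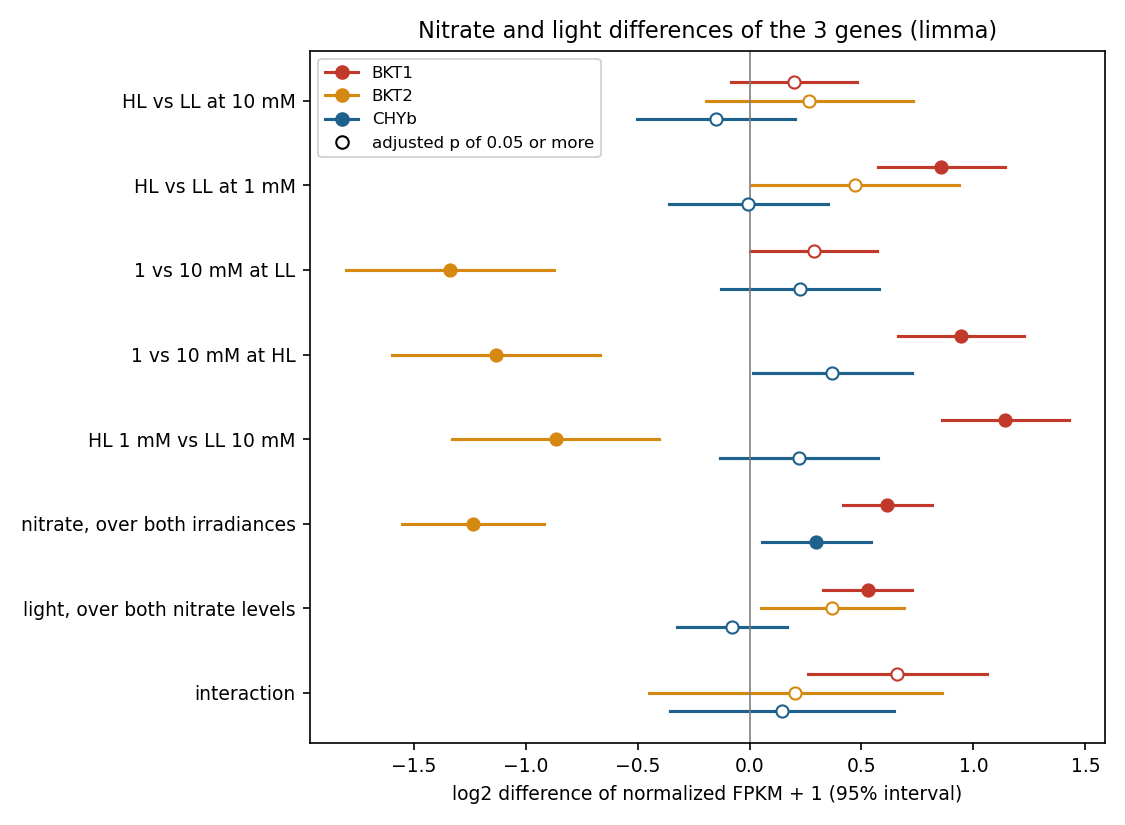
Log2 differences of normalized FPKM + 1 (x axis) for each comparison (rows), with 95% intervals from limma on 12 libraries. Filled points passed an adjusted p of 0.05. *BKT1* lies to the right of 0 in each row and *BKT2* to the left of 0 in the rows that compare nitrate levels, while the *CHYb* intervals span 0 except for nitrate under HL and for nitrate over both irradiances.

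The nitrate differences of the 3 genes were set beside the median over all genes, since both moved with the scaling of the libraries. The median log2 difference over all genes between HL 1 mM and LL 10 mM was −0.05 after quantile normalization, −0.06 with median scaling, 0.41 without normalization and 0.59 when libraries were scaled to the same sum of FPKM. *BKT1* lay above this median under each of the 4 scalings, with 1.14, 0.91, 1.52 and 1.72, and was called under each. *BKT2* lay below it, with −0.87, −0.49, −0.01 and 0.15. *CHYb* was closer to it than either ketolase gene, with 0.22, −0.08, 0.54 and 0.75, and its sign followed the scaling.

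**Figure D3:**
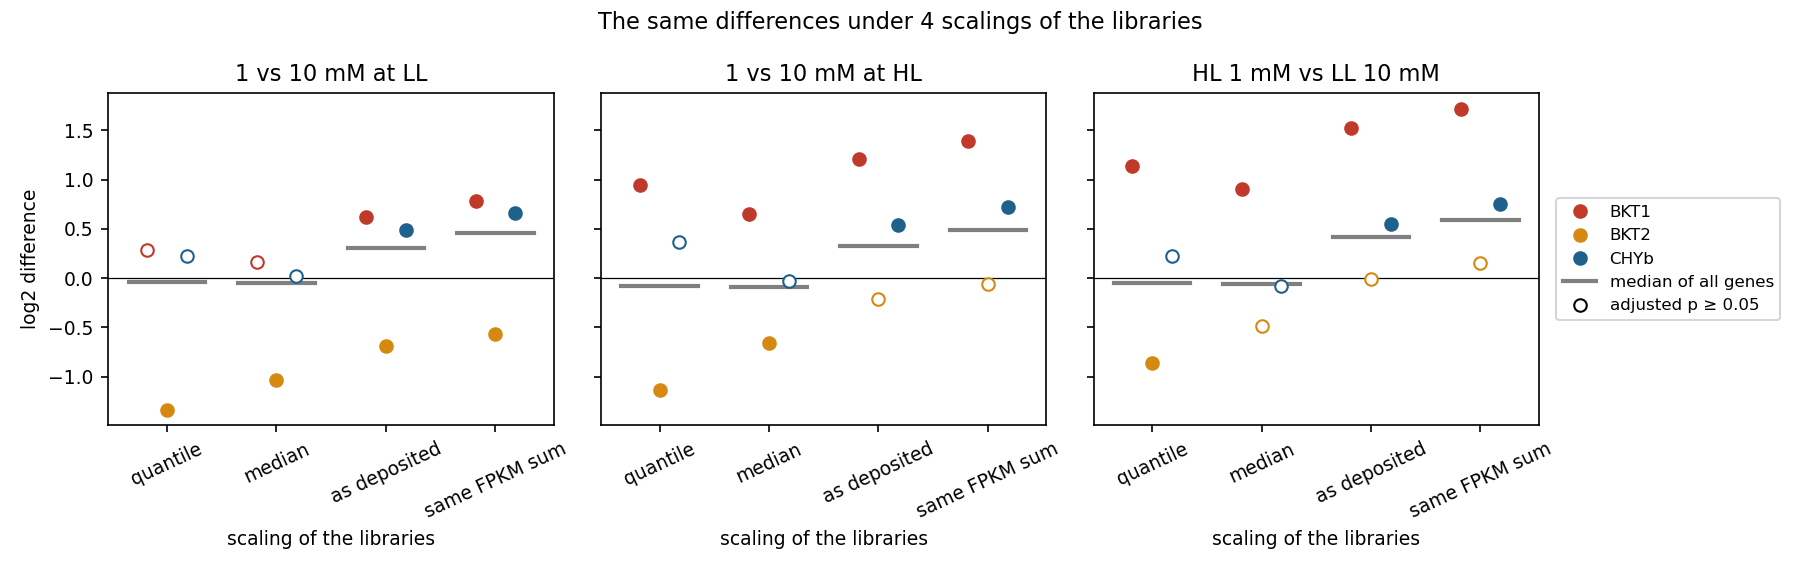
Log2 differences of *BKT1*, *BKT2* and *CHYb* (y axis) under 4 scalings of the libraries (x axes) for 1 against 10 mM nitrate in LL, the same in HL, and HL 1 mM against LL 10 mM. Filled points passed an adjusted p of 0.05, and grey lines give the median over all genes. *BKT1* stands above and *BKT2* below the grey line in each panel and scaling, while *CHYb* stays closer to it than either.

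A ratio of 2 genes within a library does not change with a factor that scales that library, so the balance of the branch was also measured by ratios of deposited FPKM. The ratio of *BKT1* to *BKT2* at 10 mM nitrate was 8.77, 5.27 and 7.82 under LL and 9.96, 4.95 and 8.51 under HL, and at 1 mM nitrate 25.3, 21.3 and 19.6 under LL and 21.4, 19.5 and 22.7 under HL. All 6 libraries at 1 mM nitrate lay above all 6 at 10 mM, and within each nitrate level the LL and HL libraries overlapped. Low nitrate raised the ratio 2.95-fold, a log2 difference of 1.56 (95% interval 1.10 to 2.02). With quantile-normalized FPKM, which changes more than the scale of a library, this log2 difference was 2.33. The two-sided exact permutation test within irradiances gave p = 0.005, the smallest it can give, and 0.015 after adjustment over the 6 tests of 3 ratios and 2 factors.

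Light left no detectable difference in the ratio of the ketolases. The log2 difference between HL and LL was 0.01 (95% interval −0.45 to 0.47, exact permutation p = 0.95, adjusted p = 0.95). In terms of the summed ketolase FPKM, *BKT2* at 10 mM nitrate made up 12.5% ± 3.03 under LL and 12.1% ± 4.09 under HL, and at 1 mM nitrate 4.38% ± 0.532 under LL and 4.53% ± 0.336 under HL (SD, n = 3). The sum itself was 27.1 ± 3.89 FPKM under LL and 33.9 ± 5.66 under HL at 10 mM, and 38.3 ± 1.70 and 73.3 ± 11.4 at 1 mM. In HL 1 mM the summed ketolase transcripts were therefore at their highest, with a *BKT2* share whose libraries overlapped with those of LL 1 mM.

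The ratio of *BKT1* to *CHYb*, the balance of the main ketolase against the hydroxylase, separated HL 1 mM from the other conditions. This ratio at 10 mM nitrate was 0.369, 0.450 and 0.358 under LL and 0.425, 0.492 and 0.552 under HL, and at 1 mM nitrate 0.400, 0.407 and 0.494 under LL and 0.769, 0.752 and 0.837 under HL. The HL 1 mM libraries lay above all others, and LL 1 mM overlapped with both conditions at 10 mM. Over both levels of the other factor, HL raised the ratio by 0.59 on the log2 scale (95% interval 0.38 to 0.81, exact permutation p = 0.01, adjusted p = 0.02) and low nitrate by 0.42 (95% interval 0.20 to 0.63, exact permutation p = 0.02, adjusted p = 0.03). The nitrate difference of this ratio was 0.15 under LL and 0.69 under HL, and the light difference was 0.32 at 10 mM and 0.86 at 1 mM, an inequality that was not tested. The nitrate call was lost without LL 10 mM replicate 3, at 0.39 (adjusted p = 0.0525), or LL 1 mM replicate 3, at 0.37 (adjusted p = 0.06).

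The ratio of *CHYb* to *BKT2* was highest in LL 1 mM, at 39.6 to 63.2, against 25.9 to 27.8 in HL 1 mM. At 10 mM nitrate it was 11.7 to 23.8 under LL and 10.1 to 23.5 under HL. All libraries at 1 mM lay above all at 10 mM, and low nitrate raised the ratio by 1.14 on the log2 scale (95% interval 0.55 to 1.74, exact permutation p = 0.005, adjusted p = 0.015). HL lowered its mean by 0.58 without passing the test (95% interval −1.18 to 0.01, exact permutation p = 0.055, adjusted p = 0.066), and it passed without LL 10 mM replicate 2, at −0.74 (adjusted p = 0.018), or HL 10 mM replicate 1, at −0.73 (adjusted p = 0.024).

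**Figure D4:**
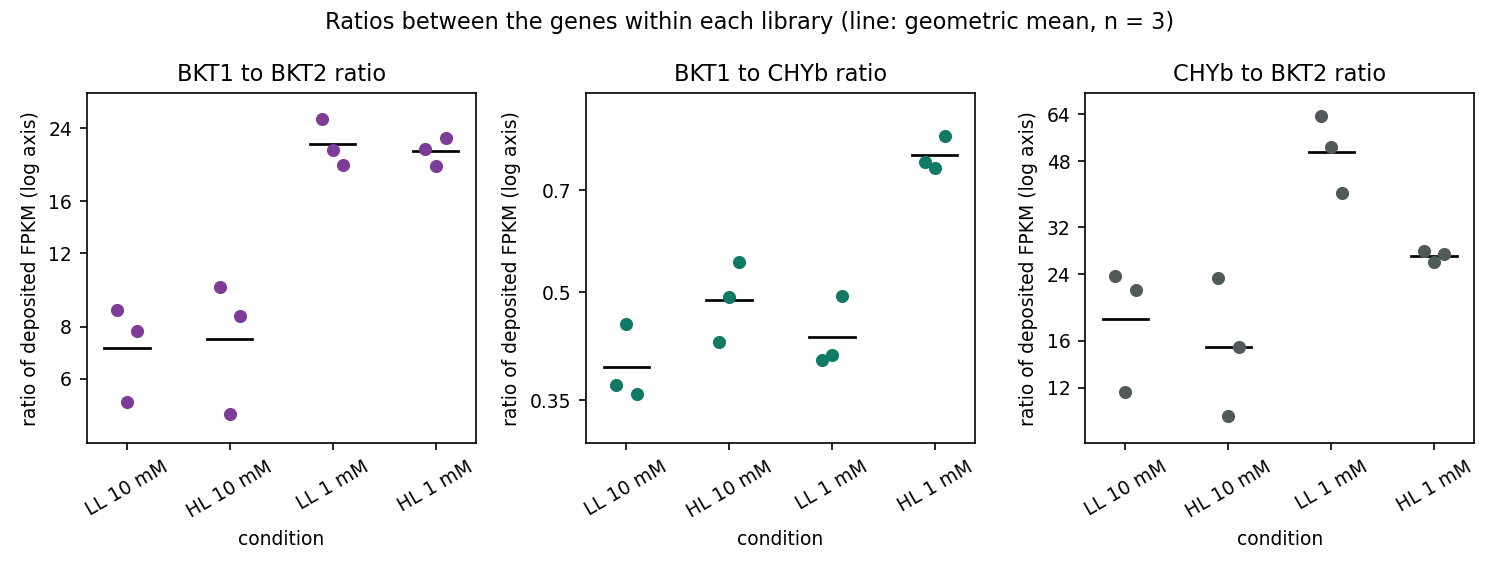
Ratios of deposited FPKM within each library (y axes, log scale) by condition (x axes), with the geometric mean of 3 libraries as a line. The ratio of *BKT1* to *BKT2* falls into 4.95 to 9.96 at 10 mM nitrate and 19.5 to 25.3 at 1 mM, the ratio of *BKT1* to *CHYb* is 0.752 to 0.837 in HL 1 mM and at most 0.552 elsewhere, and the ratio of *CHYb* to *BKT2* is highest in LL 1 mM.

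The libraries of a condition did not spread alike for the 3 genes. In HL 1 mM, replicate 3 held the lowest value of all 3 genes, with 58.2, 2.56 and 69.5 deposited FPKM for *BKT1*, *BKT2* and *CHYb*. In that condition the ratio of *CHYb* to *BKT2* ran only from 25.9 to 27.8. At 10 mM nitrate, replicate 2 held the highest *BKT2* and the lowest *CHYb* value under LL (4.41 and 51.6 FPKM) and under HL (5.23 and 52.7 FPKM), and it had the lowest ratio of *BKT1* to *BKT2* in both conditions.

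The other 22 carotenogenic genes of the study's list serve as context. Their identifiers came from the literature and a genome portal, and the study reported their responses in the libraries used here. With low nitrate over both irradiances, 4 of the 22 were called higher and 14 lower, against 27.8% and 36.7% of all genes. Their median log2 difference was −0.32, against −0.06 over all genes tested. The counts and ranks here, and those for light below, hold after quantile normalization and were not repeated under other scalings. The median nitrate effect over all genes was 0.32 without normalization and 0.47 with libraries scaled to the same sum of FPKM. *BKT1* and *CHYb* both ranked among the 6 highest of all 25 nitrate effects, *BKT1* as number 3 and *CHYb* as number 6. Of the 10 genes upstream of lycopene, which make its linear chain, 1 was called higher and 7 lower. Of the 3 hydroxylases listed under the lutein branch none was called higher and 2 were called lower. *CHYb*, which was called higher, is not among these 3, although the study also names it for the step from α-carotene to lutein. The 4 genes of the cyclases and their relatives split into 1 higher and 2 lower, and the 5 genes of the xanthophyll cycle and neoxanthin synthesis into 2 higher and 3 lower.

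With light over both nitrate levels, 8 of the 22 were called higher and 4 lower, against 5.31% and 4.45% of all genes. *BKT1* ranked 3 and *BKT2* 5 among all 25 genes for this effect, while *CHYb* ranked 20. Upstream of lycopene, 5 of 10 genes were called higher and none lower. A positive interaction was called in 3 of the 5 genes of the xanthophyll cycle and neoxanthin synthesis, against 3.10% of all genes. None of the 3 genes of the astaxanthin branch was called, a number of genes too small to set against that share. The uncalled *BKT1* interaction (0.66, limma adjusted p = 0.0586) ranked 3 among all 25 genes. It was larger than the 0.54 of the xanthophyll cycle gene ZEP, which was called. A positive interaction did not mean the same course in each gene. With low nitrate *BKT1* rose by 0.29 under LL and 0.94 under HL, and NSY Cz15g04070 by 0.17 and 0.91. ZEP fell instead, and fell less under HL (−0.22) than under LL (−0.76), as did NSY Cz01g02290 (−0.27 and −1.31).

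**Figure D5:**
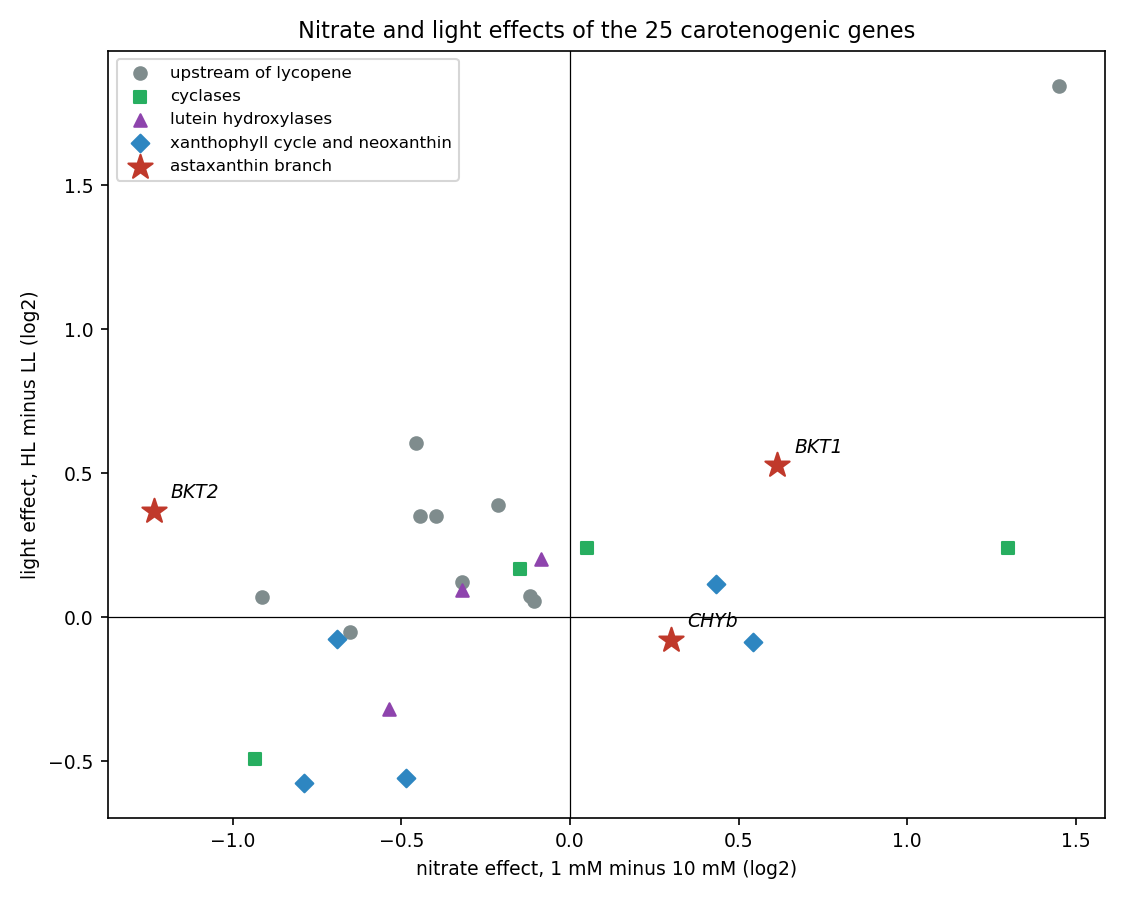
Nitrate effect (x axis, 1 mM minus 10 mM) and light effect (y axis, HL minus LL) of the 25 carotenogenic genes on the log2 scale, by role. Values are from the two-factor limma model on 12 libraries after quantile normalization. *BKT1* lies at 0.62 and 0.53, *BKT2* has the most negative nitrate effect at −1.24, and *CHYb* lies at 0.30 and −0.08.

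The genes whose profiles were most like those of the branch were sought by the root-mean-square difference between log2 profiles over the 12 libraries, each centred on its own mean. Among the 22 genes, violaxanthin de-epoxidase VDE Cz06g01120, whose enzyme turns violaxanthin back towards zeaxanthin, was closest to *CHYb* at 0.20 and to *BKT1* at 0.32. It had 24.4 normalized FPKM under LL and 27.7 under HL at 10 mM nitrate, and 34.7 and 36.2 at 1 mM. The next were the neoxanthin synthase gene NSY Cz15g04070 for *BKT1*, at 0.34, and the phytoene synthase gene PSY Cz05g32230 for *CHYb*, at 0.26. Since the *CHYb* profile departs from its own mean by 0.24, this last gene was no closer to *CHYb* than a flat profile is. NSY Cz15g04070 moved against *BKT1* with light at 10 mM nitrate, from 16.3 normalized FPKM under LL to 11.6 under HL. Its log2 difference there was −0.46 (limma adjusted p = 0.00751), against 0.20 for *BKT1*, which was not called. For *BKT2* the closest were the phytoene desaturase gene PDS Cz07g17250 at 0.34, with 12.3 and 12.7 normalized FPKM under LL and HL at 10 mM and 5.90 and 6.42 at 1 mM, and the other violaxanthin de-epoxidase gene, VDE Cz06g02070, at 0.43.

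Over all 13053 other genes with a mean of at least 1 FPKM, 2 unnamed genes were closest to *BKT1*, Cz09g06130 at 0.16 and Cz02g06170 at 0.17, against a median of 0.53. Cz09g06130 had 3.86 normalized FPKM under LL and 4.08 under HL at 10 mM nitrate, and 5.26 and 7.89 at 1 mM. The closest to *BKT2* were Cz06g01180 at 0.22 and UNPLg00794 at 0.23, against a median of 0.68. Cz06g01180 had 13.8 and 13.3 normalized FPKM at 10 mM and 5.04 and 5.79 at 1 mM, in the same order. The files do not pair these identifiers with products.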

How the data were processed

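Stranded mRNA libraries were mapped with HISAT2 (2.1) and quantified with StringTie (2.2.1) by the authors, after FastQC (0.12.0), on genome and annotation version 5.6. The deposited values are FPKM, 1 column per library, a unit inferred from decimals whose sums and medians differ between libraries. Of 15274 genes, 358 at 0 in all 12 libraries were left out. Values were turned into log2(FPKM + 1) and quantile-normalized. Fits used R 4.3.3 and limma 3.58.1 (prior degrees of freedom 2.63), with 4 condition means or with nitrate, light and interaction. The interaction term was dropped for genes in which its unadjusted p reached 0.05. Ratios were tested by exact permutation within the levels of the other factor, and their intervals come from a linear model on log2 ratios. The smallest p these permutation tests can give is 0.005, over 400 arrangements. For a single pair of conditions, with 3 libraries against 3, a two-sided exact test cannot go below p = 0.1.

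The genes named are the 3 genes of the branch, the other carotenogenic genes of the study's list, counted by role, and the genes closest in profile: 2 of that list per gene, and for *BKT1* and *BKT2* also 2 of all genes. These genes, the list and the tests were chosen with earlier results of these data known. Alternatives were a pseudocount of 0.1, a filter at a mean of 1 FPKM, 3 other scalings (1 chosen after seeing the data), a trended and robust prior, the replicate number as a block, unmoderated variances, a linear scale, the interaction kept in every model, the 6 libraries compared alone, each library left out, and for ratios a pseudocount or normalized FPKM. Deviations from the condition mean correlated at r = 0.37, 0.15 and 0.44 across genes in the 3 same-numbered pairs of LL 1 mM with HL 1 mM. These deviations are not independent within a condition. LL 1 mM replicate 1 and HL 1 mM replicate 2, of different numbers, gave 0.13, so the second value does not set its pair apart. The blocked values stand beside light at 1 mM for this reason. In each other comparison at least 1 same-numbered pair was at or below 0.1. The fitting steps were tested on simulated data. Carotenoid contents were not analysed here.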

Additional observations from a re-analysis of the deposited data

How the results depend on the processing

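A pseudocount of 0.1, a filter at a mean FPKM of 1, the interaction kept in each model and, for single conditions, the 6 libraries alone moved no call or direction of the 3 genes. Scaling moved most. Without quantile normalization, nitrate under LL passed for *BKT1* (0.62), *BKT2* no longer passed for nitrate under HL (−0.21) or both stresses (−0.0086), and *CHYb* passed for nitrate under LL (0.49), under HL (0.54) and both stresses (0.54), while its unpassed light differences turned positive (0.0064 at 10 mM, 0.059 at 1 mM, 0.033 over both). Libraries scaled to the same sum of FPKM, an alternative added after seeing the data, gave 0.78 for *BKT1* under LL, which passed. For *BKT2* they gave −0.063 (nitrate under HL), −0.32 (nitrate effect) and 0.15 (both stresses), none of which passed, and for *CHYb* 0.66, 0.72 and 0.75 for nitrate under LL, under HL and both stresses, all of which passed, with unpassed light values of 0.025, 0.092 and 0.058. Median scaling gave −0.49 for *BKT2* under both stresses, no longer passed, and unpassed negative values for *CHYb*: −0.029 (nitrate under HL), −0.075 (both stresses), −0.0053 (nitrate effect) and −0.047 (interaction). The cause was not tested.

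The *BKT1* interaction passed with a trended and robust prior (0.66) and on the linear scale (24.6 FPKM), where the unpassed *BKT2* interaction (−0.22 FPKM) and *CHYb* light difference at 1 mM (0.66 FPKM) changed sign. With unmoderated variances the *CHYb* nitrate effect no longer passed (0.30). With normalized FPKM the ratio of *CHYb* to *BKT2* passed for light (−0.62) and the light difference of *BKT1* to *BKT2* was −0.00016. The nitrate difference was then 2.00 for *CHYb* to *BKT2* and 2.33 for *BKT1* to *BKT2*. Deviations of same-numbered libraries correlated at −0.06 to 0.44 over 18 pairs, against −0.42 to 0.35 over 36 pairs of different numbers. Every same-numbered pair exceeded 0.1 for light at 1 mM, but not for the other comparisons. With the replicate block, *CHYb* under HL passed (0.37, adjusted p = 0.034), no other call of the 3 genes moved, and 1308 genes were called for light at 1 mM and 1582 for the interaction.

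Leaving out each library in turn changed calls or signs in results with these ranges: *BKT1* interaction 0.57 to 0.79, *BKT2* light effect 0.31 to 0.48, *CHYb* light at 1 mM −0.12 to 0.17, nitrate under HL 0.26 to 0.55, both stresses 0.11 to 0.40 and nitrate effect 0.24 to 0.37. The ratio ranges were −0.10 to 0.16 (*BKT1* to *BKT2*, light), 0.37 to 0.47 (*BKT1* to *CHYb*, nitrate) and −0.74 to −0.43 (*CHYb* to *BKT2*, light).

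Counts over all genes moved by over 1.5 times as follows. For light at 10 mM, 1712 genes became 2900 without normalization, 2850 with equal FPKM sums, 1044 with 6 libraries and 1081 without HL 10 mM replicate 1. For light at 1 mM, 781 became 428 with median scaling, 403 with 6 libraries, and between 310 (without LL 1 mM replicate 1) and 1336 (without LL 1 mM replicate 3) when 1 library was left out. For nitrate under LL, 6936 became 10683 with equal FPKM sums. For the light effect, 1456 became 2500 without normalization and 2924 with equal FPKM sums. For the interaction, 817 became 1283 with median scaling, 474 with unmoderated variances, and between 202 (without LL 1 mM replicate 2) and 1421 (without LL 1 mM replicate 3) when 1 library was left out. Without read counts the counting error is unknown, which bears most on *BKT2*.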
